A study of Homo sapiens with 6 samples.

Results

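The 9 genes described here encode the carriers, exporters and receptors of brain lipoproteins: the apolipoprotein genes APOE, CLU and APOD, the cholesterol exporter genes ABCA1 and ABCG1, and the receptor genes LRP1, LRP8, VLDLR and SORL1. They were chosen by name, all 9 of them among the 18056 genes of the deposited table, and 8 (all but APOD) had enough counts to be tested among 13842 genes. Expression was measured by RNA sequencing of poly(A) RNA in human forebrain organoids, cell aggregates grown from induced pluripotent stem cells that take on features of dorsal forebrain. All came from DYR0100, an established stem cell line of a genotype labelled WT, and all carry the same batch label. In 3 libraries the organoids had received vehicle, and in the other 3 they had received Aβ42, the aggregation-prone amyloid-β peptide, at 5 µM, in both cases for 6 days. The age of the organoids is not given in the sources used here, and results from a single line describe that line. The design text calls the replicates independent and biological.

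In brain, lipid travels between cells on particles that carry apolipoprotein E, made mainly by astrocytes and other glia and, in disease, by microglia. Clusterin, the product of CLU, is a secreted chaperone and a second particle protein, and apolipoprotein D is a small lipid-binding lipocalin of glia. ABCA1 loads cholesterol and phospholipid onto lipid-poor apolipoprotein E and ABCG1 adds cholesterol to particles already formed; both genes, like APOE, are known targets of the sterol-sensing nuclear receptors LXRα and LXRβ. LRP1, LRP8 and VLDLR belong to one family of lipoprotein receptors and take up these particles, and LRP8 and VLDLR are also the receptors for reelin, which guides migrating neurons. SORL1 sorts the amyloid precursor protein away from the compartments in which amyloid-β is cut. APOE, CLU and SORL1 are Alzheimer disease risk genes.

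APOE was the member with the largest difference, at a lower mean level with Aβ42. SORL1 and LRP8 were lower by smaller amounts, and CLU, LRP1, VLDLR, ABCA1 and ABCG1 differed by at most 7% of their level. In edgeR's quasi-likelihood test 0 of 8 members passed at 0.05 after adjustment, as did 0% of all tested genes, and the smallest adjusted p-value of any gene was 0.0684. Without adjustment 1 of 8 members (APOE) had a p-value under 0.05, against 23.9% of all tested genes. With the replicate number as a block, which compares libraries of the same number (a pairing that the labels do not state and that the data bear out only for number 2), APOE and SORL1 passed as lower (2 of 8, against 7.05% of all tested genes as lower, 7.12% as higher and 14.2% in either direction). By DESeq2 1 of 8 passed (APOE, adjusted p-value 0.0252), against 6.3% of the genes to which it gave an adjusted p-value. The estimated log2 fold change was negative in 8 of 8 members, against 49.3% of all tested genes, although the sign of LRP1 and VLDLR turned after a correction for gene length and that of CLU turned without vehicle replicate 2. The median over the 8 was -0.10, against 0.003 over all tested genes. In 5 of 8 members (APOE, ABCA1, LRP1, LRP8 and SORL1) all 3 same-numbered pairs were lower with Aβ42, against 24.6% of all tested genes, and in 0 of 8 all 3 pairs were higher, against 25.6%.

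The libraries were alike in depth, with 16465390 to 16742958 estimated counts each and TMM scaling factors of 0.996 to 1.006. The dorsal forebrain transcription factor genes EMX1, EMX2, LHX2 and PAX6 were present in every library. In CPM (counts scaled to library size after TMM) the lowest of them was EMX2, at 34 to 35.4 in vehicle and 31.4 to 39 with Aβ42, and the highest was LHX2, at 151.7 to 157.8 and 145.1 to 161.1. The libraries numbered 2 stood apart from the others of their group in a like way. Aβ42 replicate 2 was nearer to the vehicle libraries, at a chi-square per gene of 3.16, 7.7 and 4.58 from vehicle replicates 1, 2 and 3, than to Aβ42 replicates 1 and 3, at 9.4 and 8.48. For the members, the pathway genes as a whole and those named as passing with the block, results that rest on the libraries numbered 2 are given with and without them. Marker lists and the counts of single pathway lists are given with all libraries only.

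The sequence before the start of APOE and of SORL1 is shown because these are the members that passed with the block, and the site in ABCA1 because it was the only member window to hold an LXR repeat. They come from RefSeq's GRCh38.p14 starts, which matched 6 of the 9 members, and the APOE and SORL1 stretches stop before the first base that GENCODE 29 annotates as protein-coding exon. Capitals in the first pair mark the GC box GGGCGG on either strand, the site of Sp-family factors. Capitals in the ABCA1 site mark the repeat, and each sequence reads 5′ to 3′ in the direction of its gene.
APOE, chr19:44905546-44905753, plus strand: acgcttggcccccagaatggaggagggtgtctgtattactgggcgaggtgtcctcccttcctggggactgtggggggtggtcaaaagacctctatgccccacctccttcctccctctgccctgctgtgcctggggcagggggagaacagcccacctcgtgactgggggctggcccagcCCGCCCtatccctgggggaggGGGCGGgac
SORL1, chr11:121452064-121452202, plus strand: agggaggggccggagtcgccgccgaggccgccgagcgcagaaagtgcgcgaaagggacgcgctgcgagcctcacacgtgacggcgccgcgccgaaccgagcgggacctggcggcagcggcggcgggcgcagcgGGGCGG
ABCA1, chr9:104928205-104928229, minus strand: ggcttTGACCGATAGTAACCtctgc
Windows of 300 bases, from 250 before to 50 after the start, were searched on both strands. The LXR direct repeat was searched as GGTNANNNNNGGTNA and was found in 0.656% of 27305 promoters. In ABCA1 it lay 69 to 55 bases before the start, and it was not found in the APOE, SORL1, LRP1, LRP8 or VLDLR windows. The GC box was in the window of all 6 members at their first listed start and in 44.6% of promoters. The SREBP element, searched as TCACNCCAC, was in 1.15% of promoters and in no member window, and the hypoxia factor core ACGTG, which can overlap itself on the opposite strand, was in 21.6% of promoters and in the ABCA1 and SORL1 windows. A match describes the letters only, and binding was not measured.

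Per length of transcript, CLU was the most abundant member. In TPM (a share of transcripts that corrects for gene length) it stood at 249.3 ± 11.1 in vehicle and 237.6 ± 4.71 with Aβ42 (SD, n = 3 each), within the top 3.11% of all listed genes in vehicle. LRP1 followed at 102.8 ± 1.42 TPM in vehicle, SORL1 at 89.4 ± 10.2 and LRP8 at 66.5 ± 2.01. APOE stood at 36.3 ± 9.52 TPM in vehicle, in the top 30.2% of genes, and below all 3 of those receptors in every library. VLDLR was at 21.2 ± 0.8, ABCA1 at 14.5 ± 1.43 and ABCG1 at 13.5 ± 2.68 TPM in vehicle, near the middle of the listed genes. APOD was at 0.557 ± 0.285 TPM.

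**Figure D1:**
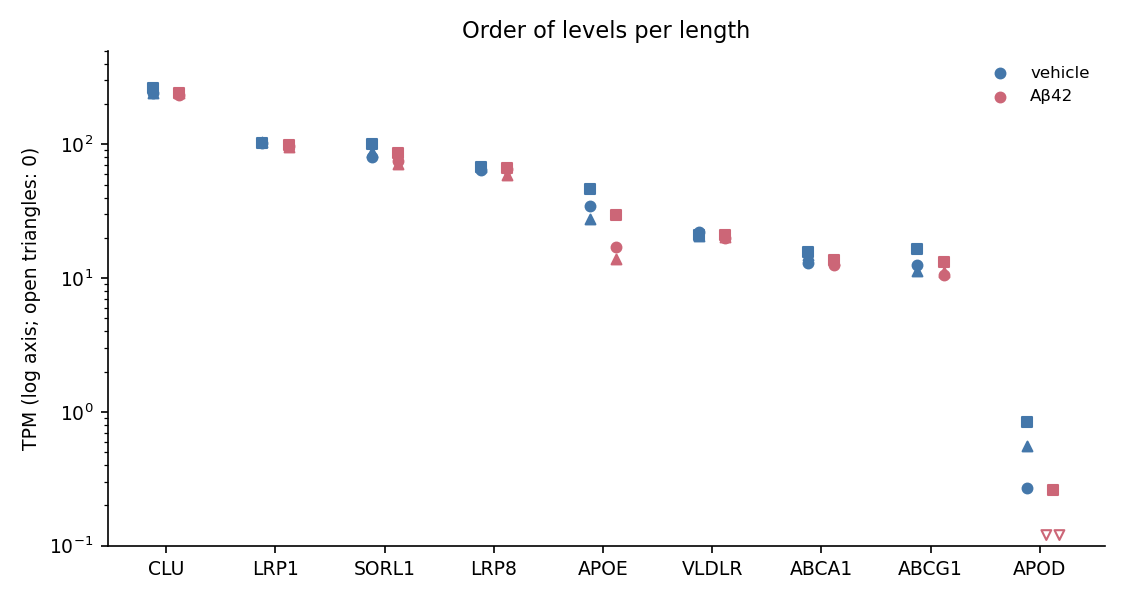
TPM of each gene in every library on a log axis, vehicle in blue and Aβ42 in red, with circles, squares and triangles for replicates 1 to 3 and open triangles for libraries at 0 TPM. CLU lies above all others, and APOE spans 13.96 to 46.59 TPM, the widest relative range of the 8 tested genes.

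Neighbours in this order were mostly apart beyond their spread. CLU exceeded LRP1 by 2.32 to 2.55 times within each of the 6 libraries. LRP1 and SORL1 overlapped over all libraries, since SORL1 reached 100.4 TPM in vehicle replicate 2 while LRP1 was at 95.89 or more, but LRP1 was the higher in 6 of 6 libraries. APOE lay above VLDLR in all 3 vehicle libraries and in Aβ42 replicate 2 and below it in Aβ42 replicates 1 and 3, so their order was not fixed across the groups. ABCA1 and ABCG1 overlapped within each group. ABCA1 was the higher in 5 of 6 libraries, at 0.957 to 1.31 times ABCG1, so their order did not hold in every library.

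APOE (Entrez gene ID 348, chr19:44905796-44909393 in GRCh38) had 201, 262 and 157 estimated counts in vehicle replicates 1 to 3 and 100, 176 and 85 with Aβ42. In CPM these were 12.1, 15.9 and 9.57 in vehicle and 6.09, 10.5 and 5.1 with Aβ42. Aβ42 replicates 1 and 3 lay below all vehicle libraries, and Aβ42 replicate 2 lay above vehicle replicate 3, so the groups overlapped. The group means were 12.5 ± 3.2 and 7.21 ± 2.85 CPM, a log2 fold change of -0.79 ± 0.30 (SE) with a 95% interval of -1.49 to -0.09 and an adjusted p-value of 0.17 (edgeR). Within same-numbered pairs the log2 difference was -0.99, -0.61 and -0.91, lower in 3 of 3 pairs, and the pattern of high and low libraries was alike in both groups, number 2 being highest and number 3 lowest. With the replicate block the log2 fold change was -0.81 ± 0.12 (95% interval -1.07 to -0.56, adjusted p-value 0.00053).

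The APOE call depended on how libraries were treated. Without Aβ42 replicate 2 the log2 fold change was -1.16 and passed without a block (adjusted p-value 0.00574); in that fit 3 of 8 members passed, against 23.1% of the genes tested in it. Without vehicle replicate 2 it was -0.58 (0.404) and without Aβ42 replicate 3 it was -0.60 (0.413). With both libraries numbered 2 left out it was -0.95 and passed with the block (0.000824) and without it (0.00184). Without a block it did not pass with both libraries numbered 1 left out (-0.71, 0.448) or both numbered 3 left out (-0.76, 0.601). With the block and without number 1 or number 3 the log2 fold change was -0.73 (0.0579) and -0.78 (0.00773). In bulk tissue, fewer cells of a type and less RNA per cell cannot be told apart.

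**Figure D2:**
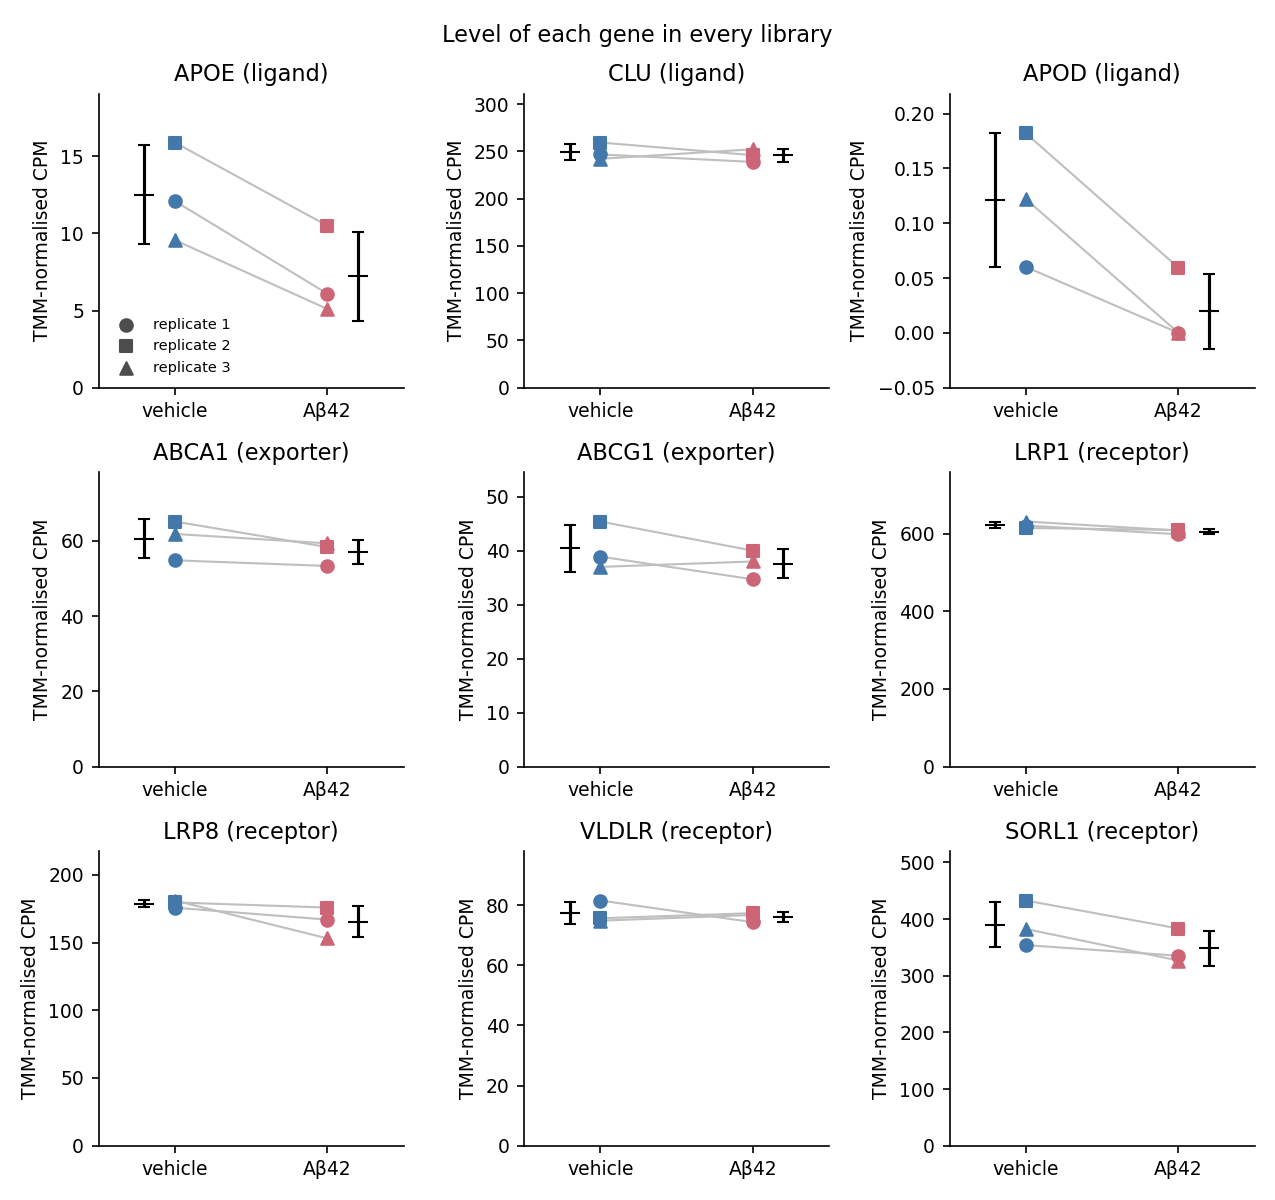
TMM-normalised CPM of each of the 9 genes in vehicle (blue) and Aβ42 (red) libraries, with lines joining libraries of the same replicate number and black bars for mean ± SD (n = 3). All 3 APOE lines slope down, whereas those of CLU and VLDLR cross.

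Markers of cell types that make apolipoprotein E were read in the same libraries. Of 10 astrocyte markers, all tested, 7 had a negative log2 fold change and none passed, with a median of -0.27. With the replicate block 4 of 10 (S100B, SLC1A3, GJA1 and SPARCL1) passed as lower, against 7.05% of all tested genes. In the same fit 1 of 10 (ALDOC) passed as higher, against 7.12%. The summed level of the 10 markers was 1447 to 1558 CPM in vehicle and 1317 to 1488 CPM with Aβ42. Most of this was SLC1A2 (604 ± 13.4 CPM in vehicle and 608.9 ± 23.1 with Aβ42) and SLC1A3 (761.8 ± 42.8 and 653.4 ± 92.2 CPM). None of the 10 markers was at 0. Among them S100B, a calcium-binding protein of astrocytes, went from 5.39 ± 1.91 to 2.26 ± 1.06 CPM, with groups that did not overlap. Its log2 fold change was -1.25 (adjusted p-value 0.0975 in edgeR, and 0.000941 with the block). GJA1 went from 16.2 ± 6.33 to 9 ± 5.07 CPM (-0.84, adjusted p-value 0.358, and 0.00053 with the block). SPARCL1 went from 50.8 ± 14.3 to 27.1 ± 15.4 CPM (-0.91, 0.313, and 0.0184 with the block). The groups overlapped in GJA1 and SPARCL1. In the other direction ALDOC, a glycolytic enzyme of astrocytes, went from 18.5 ± 7.08 to 34.4 ± 9.52 CPM (0.90, adjusted p-value 0.222, and 2.02e-05 with the block). ALDH1L1, a folate enzyme of astrocytes, was also higher, from 7.52 ± 0.783 to 9.44 ± 0.0159 CPM (0.33, 0.137, and 0.0823 with the block), without overlap. Of the 10 markers 1 was lower without overlap, against 13.4% of all tested genes, and 1 higher, against 13.6%. GFAP, the astrocyte filament protein, measured 33.6, 32.7 and 28.1 CPM in vehicle and 28.1, 33.8 and 24.5 with Aβ42. These astrocyte genes are shown after their values were seen, and their part in the APOE difference was not tested.

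Choroid plexus, the secretory epithelium that also expresses apolipoprotein genes, ran with replicate number. Of its 8 markers 7 were tested, 6 with a negative log2 fold change, against 49.3% of all tested genes. None passed without the block, and 2 passed as lower with it, against 7.05% of all tested genes. Their summed level was 457.6, 986.4 and 503.7 CPM in vehicle and 499.3, 916.4 and 395.5 CPM with Aβ42. Most of this was TTR, the choroid plexus thyroxine carrier; without TTR the sum was 66.2, 115 and 52.4 CPM in vehicle and 49.4, 111 and 42 CPM with Aβ42. Both libraries numbered 2 were the highest of their group in this list, as they were in APOE, and the part of choroid plexus in the APOE values was not tested. Radial glia markers had summed levels of 4720 to 4983 CPM in vehicle and 4883 to 5035 CPM with Aβ42, most of it PTPRZ1, VIM and FABP7. Of the 10 markers 7 had a positive log2 fold change. With the block 2 of 10 passed as lower, against 7.05% of all tested genes, and none as higher. The 2 were HOPX (log2 fold change -0.46, adjusted p-value 0.000503) and NES (-0.20, 0.0208).

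Of 10 microglial markers only CD68 had enough counts to test. TREM2, TYROBP, C1QA, C1QB and C1QC had 0 counts in all 6 libraries (a count of 0 is compatible with up to 3 counts, at most 0.183 CPM), and the list summed to 2.88 to 3.48 CPM in vehicle and 3.23 to 3.48 CPM with Aβ42. The defining microglial markers were therefore at or near 0 in both groups. Of 8 mesenchymal and vascular markers 5 were tested, none passed without the block and 1 passed as lower with it, against 7.05% of all tested genes. Their summed level was 43.91 to 82.63 CPM in vehicle, highest in replicate 2, and 34.43 to 46.97 CPM with Aβ42, and their part in the APOE values was not tested. The 6 proliferation markers all had a negative log2 fold change and 6 of 6 passed as lower with the block, against 7.05% of all tested genes. Their summed level was 584.7 to 681 CPM in vehicle and 386 to 546 CPM with Aβ42, and their part was not tested either.

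**Figure D3:**
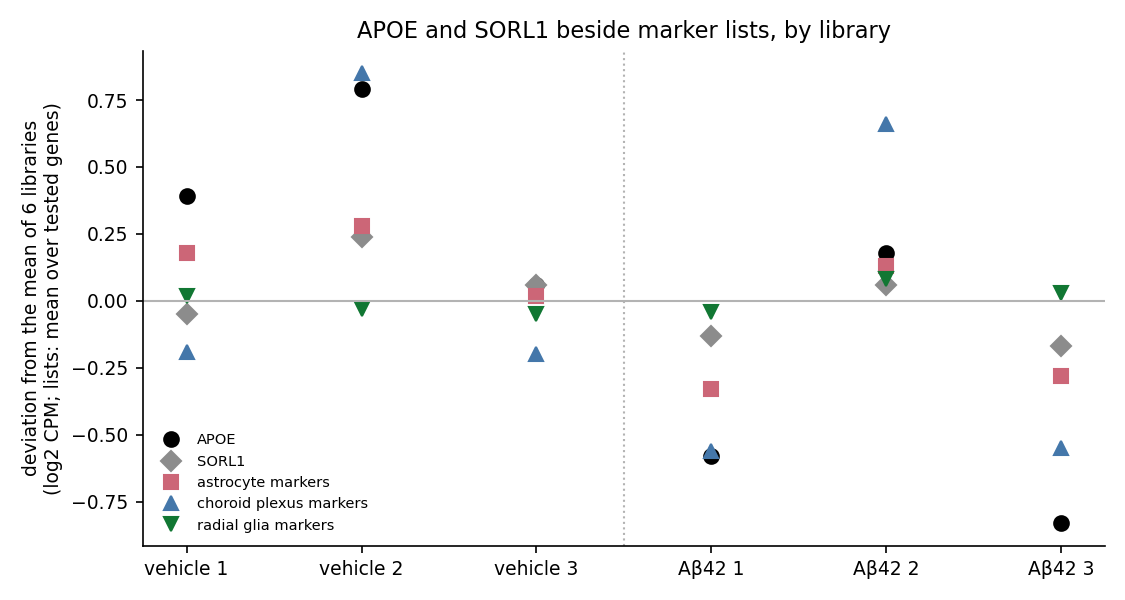
Deviation from the mean of the 6 libraries on the log2 CPM scale for APOE, SORL1 and the mean of 3 marker lists, by library. APOE is at 0.39, 0.79 and 0.06 in vehicle replicates 1 to 3 and at -0.58, 0.18 and -0.83 with Aβ42. The astrocyte list is at 0.18, 0.28 and 0.02 in vehicle and at -0.33, 0.13 and -0.28 with Aβ42. APOE and the choroid plexus list are both high in vehicle replicate 2 and low in Aβ42 replicates 1 and 3. They differ in vehicle replicate 1 (0.39 and -0.19) and in Aβ42 replicate 2 (0.18 and 0.66). The mean of the radial glia list stays between -0.05 and 0.08. The part of these lists in the APOE values was not tested.

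The genes nearest to APOE in pattern over the 6 libraries were EFCAB2, EPAS1, DTX3L, ID3 and SCUBE3. Likeness was the root mean square difference in the deviation of log2 CPM from each gene's own mean, which was 0.128 to 0.130 for these 5 among 12186 genes, against a root mean square deviation of 0.55 for APOE itself. EPAS1, a hypoxia-inducible transcription factor, had a log2 fold change of -0.60 and ID3, an inhibitor of basic helix-loop-helix factors and a BMP target, one of -0.64. Because these genes were picked for a pattern that holds the group difference itself, their fold changes repeat that of APOE by construction and support nothing.

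CLU (Entrez gene ID 1191) was level across the libraries. It had 4106, 4265 and 3970 counts in vehicle replicates 1 to 3 and 3918, 4141 and 4204 with Aβ42, or 246.7, 259.3 and 242.1 CPM and 238.8, 245.9 and 252.2 CPM. The groups overlapped, and the pairs went in both directions. The log2 fold change was -0.02 ± 0.05, with a 95% interval of -0.13 to 0.08 (adjusted p-value 0.805, edgeR), which in percent of the vehicle level is -8.35% to 5.86%. In TPM, which is scaled differently, the values were 243.5, 262.15 and 242.24 in vehicle and 232.24, 240.89 and 239.8 with Aβ42. On that scale every Aβ42 library was below every vehicle library. The share of all genes without overlap in TPM was not counted. On log2(TPM + 1) the CLU difference was -0.07, and the median over all tested genes was itself -0.040, against 0.003 in the fit reported. CLU did not pass there or in any other alternative.

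APOD (Entrez gene ID 347, chr3:195568705-195583940) was close to the detection limit. It had 1, 3 and 2 counts in vehicle replicates 1 to 3 and 0, 1 and 0 with Aβ42. Every library was at or under 3 counts, so no fold is given and a change was not detectable at this depth. Of 14 other apolipoprotein genes 11 were listed and only APOL2 and APOM were tested. APOL2, an intracellular lipid-binding protein, measured 10.1 ± 1 CPM in vehicle and 11.5 ± 0.794 with Aβ42, and APOM, which carries sphingosine-1-phosphate on particles, had 0.889 ± 0.194 and 1.16 ± 0.185 CPM; neither passed (adjusted p-values 0.331 and 0.45, edgeR). APOC1, the neighbour of APOE in the genome, had 3, 4 and 3 counts in vehicle and 0, 1 and 1 with Aβ42.

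The exporter ABCA1 (Entrez gene ID 19, chr9:104781006-104928155) had 54.8, 65.1 and 61.8 CPM in vehicle replicates 1 to 3 and 53.3, 58.3 and 59.3 in the Aβ42 libraries. Each Aβ42 library lay below the vehicle library of its number, and the groups overlapped. Its log2 fold change was -0.09 ± 0.07, with a 95% interval of -0.25 to 0.07 (adjusted p-value 0.476, edgeR). ABCG1 (9619, chr21:42199689-42297244) measured 38.9, 45.4 and 37 CPM in vehicle and 34.7, 40 and 38 with Aβ42. Vehicle replicate 2 was the highest library, and the remaining values overlapped. The log2 fold change was -0.10 ± 0.09 (-0.30 to 0.09, adjusted p-value 0.477), and without vehicle replicate 2 it was -0.01.

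LRP1 (Entrez gene ID 4035, chr12:57128483-57213361), the large scavenger receptor, was the steadiest member. It measured 620.7, 614.4 and 631 CPM in vehicle and 598.3, 609.1 and 607.8 with Aβ42. Every Aβ42 library lay below every vehicle library, which made LRP1 the single member whose groups did not overlap (1 of 8, against 13.4% of all tested genes as lower and 27% in either direction). The size was small, a log2 fold change of -0.04 ± 0.04 (-0.13 to 0.05, adjusted p-value 0.587 in edgeR), or -8.84% to 3.79% of the vehicle level. After removing the trend of fold change with gene length the estimate was 0.02 and the groups overlapped. Its 3 nearest genes in pattern were C6orf89, KDM1A and HSP90AA1, at root mean square differences of 0.007 to 0.010, all of them similarly flat.

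LRP8 (Entrez gene ID 7804, chr1:53242364-53328070), which binds reelin and apolipoprotein E, measured 175.8, 179.7 and 181.1 CPM in vehicle and 167, 175.9 and 153.1 with Aβ42. Aβ42 replicate 3 was the lowest library, and Aβ42 replicate 2 was at the level of vehicle replicate 1. The log2 fold change was -0.11 ± 0.06 (-0.23 to 0.01, adjusted p-value 0.237, edgeR), 3 of 3 pairs were lower, and with the block the adjusted p-value was 0.167. Without Aβ42 replicate 2 it was -0.16 and passed (0.0355), and without Aβ42 replicate 3 it was -0.06 (0.604). In deposited TPM the group means were 66.5 ± 2.01 and 63.4 ± 4.2, and limma on log2(TPM + 1) gave a difference of -0.07.

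For LRP8 the number of counts per TPM, a measure of the transcript length that the deposited values assign to a gene, was not the same in all libraries. On a scale where the median gene is near 1 it was 2.16, 2.13 and 2.16 for LRP8 in vehicle and 1.98, 2.08 and 1.99 with Aβ42. All 3 Aβ42 values were lower, a pattern without overlap that 38.5% of 11455 genes with a mean of at least 5 TPM showed in either direction. The coefficient of variation over the 6 libraries was 3.92% for LRP8 and 6.02% for ABCG1, against a median of 0.62%. More variation was found in 8.92% and 3.74% of these genes. For ABCG1 the values were 2.43, 2.23 and 2.61 in vehicle and 2.55, 2.4 and 2.61 with Aβ42, overlapping between groups. In the other 6 tested members it was at most 0.493%. Which transcripts were involved was not analysed here.

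VLDLR (Entrez gene ID 7436, chr9:2621787-2660056), the other reelin receptor of the family, measured 81.5, 75.6 and 74.8 CPM in vehicle and 74.3, 77.3 and 76.7 with Aβ42. Vehicle replicate 1 was the highest and the other 5 libraries were within a narrow range. The log2 fold change was -0.02 ± 0.05 (-0.14 to 0.10, adjusted p-value 0.827, edgeR), and without vehicle replicate 1 it was 0.02. Exons of the antisense gene VLDLR-AS1 cover 7.9% of the VLDLR exon bases in GENCODE 29, opposite-strand genes also share 3.37%, 4.55% and 2.43% of LRP8 exon bases, and whether counting used strand is not given in the sources used here, so reads of such pairs cannot be told apart.

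SORL1 (Entrez gene ID 6653, chr11:121452314-121633763) had the largest receptor difference. It was at 354.1, 432.8 and 382.5 CPM in vehicle replicates 1 to 3 and 335.3, 383.4 and 326.8 CPM with Aβ42. Number 2 was the highest library of both groups, and Aβ42 replicate 2 lay above vehicle replicates 1 and 3, so the groups overlapped. The means were 389.8 ± 39.9 and 348.5 ± 30.5 CPM, a log2 fold change of -0.16 ± 0.08 (-0.35 to 0.02, adjusted p-value 0.262, edgeR). Within pairs the log2 difference was -0.08, -0.17 and -0.23, and with the replicate block the log2 fold change was -0.16 ± 0.05 (adjusted p-value 0.0402). That call did not hold with the block and a length correction together (-0.11, 0.104), nor with the block when any number was left out (0.112, 0.124 and 0.297 without numbers 1, 2 and 3). Without vehicle replicate 2 the log2 fold change was -0.08 (0.651), and without Aβ42 replicate 2 it was -0.24 and passed (0.0475), both without a block. Excitatory neurons express SORL1 and LRP8, and of their 9 markers, all tested, 7 had a negative log2 fold change (median -0.14), 0 passed without the block and 3 of 9 passed as lower with it, against 7.05% of all tested genes. Those markers summed to 4617, 4945 and 4720 CPM in vehicle and 4551, 4377 and 4549 CPM with Aβ42, all Aβ42 libraries being lower. Without DCX, the most abundant of them, the sums were 2725, 2707 and 2777 CPM in vehicle and 2699, 2582 and 2719 CPM with Aβ42, and the groups overlapped. Their part in the SORL1 and LRP8 values was not tested.

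**Figure D4:**
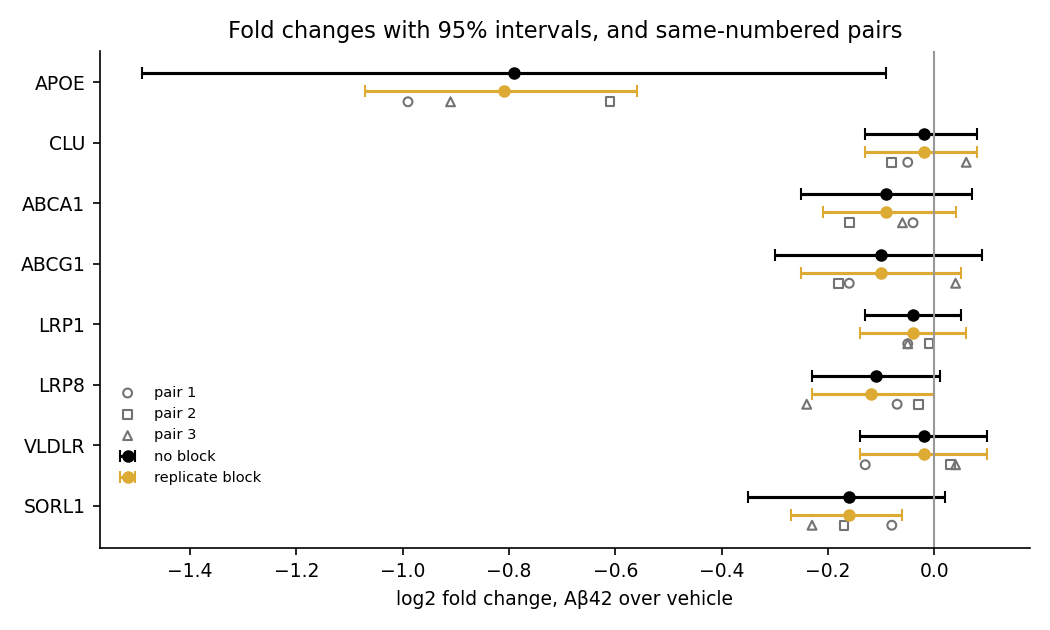
Log2 fold change of Aβ42 over vehicle for the 8 tested genes, without (black) and with (yellow) the replicate block, with 95% intervals, and the log2 difference within each same-numbered pair (open symbols). Only the APOE interval excludes 0 without the block, and the block narrows the APOE and SORL1 intervals.

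The remaining lipoprotein genes were read from 7 lists, of 95 genes in all, of which 92 were listed and 78 tested. None passed (0 of 78, against 0% of all tested genes), and 19 had an unadjusted p-value under 0.05, 15 higher and 4 lower (24.4%, against 23.9% of all tested genes, 12.4% as higher and 11.5% as lower). With the replicate block 12 of 78 passed as higher, against 7.12% of all tested genes, and 1 of 78 as lower, against 7.05% (16.7% in all, against 14.2%). Over both directions the shares were near those of all genes, while by direction the share called higher was above that of all genes and the share called lower was below it, a difference that was not tested. The median log2 fold change was 0.08, against 0.003. These block calls depended on the libraries kept: without number 1, 2 or 3, with the block, 2, 12 and 3 of the pathway genes passed. LRP10, LRP4, SRC, SREBF2, INSIG1, NPC1 and SCARB1, whose values follow, did not pass without number 1 or without number 3. Without number 2 LRP10, SRC, SREBF2, INSIG1 and SCARB1 passed, and LRP4 (0.0917) and NPC1 (0.0652) did not.

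Among 12 other genes of this receptor family and its adaptors, 7 had a negative and 5 a positive log2 fold change, against 49.3% of all tested genes as negative. The 2 with the smallest p-values were higher: LRP10 went from 44.2 ± 1.75 to 53.3 ± 3.12 CPM (log2 fold change 0.27 ± 0.06, adjusted p-value 0.0734, edgeR) and LRP4, the agrin receptor, from 149.9 ± 11.5 to 174.4 ± 11 CPM (0.22 ± 0.07, 0.0981). With the block they passed at 0.0128 and 0.0151, the only 2 of the 12, against 14.2% of all tested genes in either direction. The sortilin and retromer list holds receptors related to SORL1 (SORT1, SORCS1, SORCS2 and SORCS3) as well as retromer and SNX genes of endosomal sorting. Of its genes 0 of 11 passed with the block, against 14.2% of all tested genes, or without it, against 0%. The p-value before adjustment was under 0.05 for 1 of 11, against 23.9%, and the median log2 fold change was 0.01. SORT1, a sorting receptor related to SORL1, was at 153.5 ± 8.48 and 142 ± 1.99 CPM (-0.11, adjusted p-value 0.209), and VPS29, a retromer subunit, at 52.1 ± 1.35 and 47.4 ± 3.75 CPM (-0.14, 0.248).

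Of the 9 genes of the reelin pathway, which LRP8 and VLDLR transmit, 6 had a negative log2 fold change and the median was -0.05. SRC, a kinase of the pathway, measured 89.4 ± 3.25 CPM in vehicle and 78.1 ± 6.32 with Aβ42 (-0.20 ± 0.06, adjusted p-value 0.115 in edgeR) and passed with the block (0.032). CRK, its adaptor, was at 147 ± 4.45 and 136 ± 2.15 CPM (-0.11, adjusted p-value 0.169). RELN, the ligand, was low and level, at 13.2 ± 2.1 and 13.9 ± 1.86 CPM (0.07, adjusted p-value 0.766).

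The LXR list holds receptor genes as well as target genes, and its signs were mixed. Of its 13 tested genes 9 had a positive log2 fold change, opposite to APOE, ABCA1 and ABCG1, with a median of 0.20 over the 13. Of these 9, NR1H2, NR1H3, RXRB and RXRG are receptor genes. The 4 with a negative log2 fold change were SREBF1 (-0.17), LPCAT3 (-0.08), SMPDL3A (-0.20) and the receptor gene RXRA (-0.01). With the block 2 passed as higher, against 7.12% of all tested genes. These differences in sign were not tested. RXRB, a partner receptor of LXR, was at 52.2 ± 0.856 and 58.2 ± 1.08 CPM (0.16, adjusted p-value 0.12 in edgeR). MYLIP, the LXR-induced ligase that degrades lipoprotein receptors, was at 8.46 ± 0.814 and 9.74 ± 0.776 CPM (0.20, adjusted p-value 0.329). Of the 17 tested genes of the SREBP2 list, the sterol-starvation programme, 13 had a positive log2 fold change (median 0.13), and 5 passed as higher with the block, against 7.12% of all tested genes. INSIG1, the sterol-regulated anchor of SREBP, was at 36.7 ± 3.39 and 47.5 ± 8.59 CPM (0.37 ± 0.13, adjusted p-value 0.145, and 0.00341 with the block), and SREBF2 at 324.8 ± 25.3 and 368.7 ± 32.2 CPM (0.18, 0.172, and 0.0192 with the block). Among 14 tested genes of particle remodelling and cholesterol handling the median was 0.10. NPC1, the lysosomal cholesterol exporter, was at 37.8 ± 2.77 and 44.4 ± 3.39 CPM (0.23, adjusted p-value 0.12, and 0.0247 with the block), and SCARB1, a receptor for high-density particles, at 34.8 ± 4 and 42.5 ± 4.22 CPM (0.29, 0.121, and 0.0101 with the block).

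**Figure D5:**
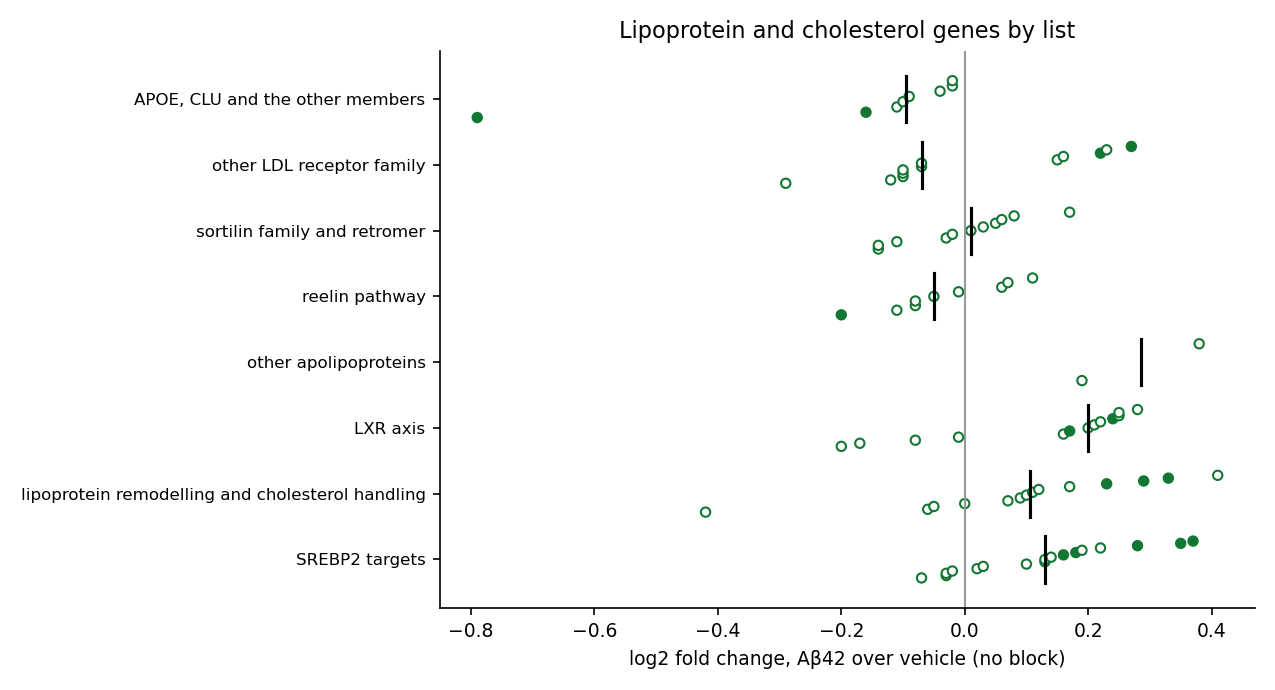
Log2 fold change without a block for the tested genes of the 8 members (top) and of the 7 lists, with a vertical bar at each median and filled points for genes that passed with the replicate block. APOE stands at -0.79, outside the range of all other points.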

How the data were processed

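RNA was sequenced from 3 vehicle and 3 Aβ42 libraries. Per the labels' protocols, poly(A) RNA went into stranded libraries with PCR, and no molecular identifiers are mentioned, so error statements cover counting and spread between libraries. The submitters' processing notes name FastQC, STAR 2.7.11b, featureCounts 2.0.6 and GRCh38. For each gene and library the authors deposited 1 read count and 1 TPM value. Since 86.9% to 87.5% of the deposited counts were whole numbers (tolerance 0), they were taken as estimated counts, although those of the members were whole; how they arose is not given in the sources used here. The deposited TPM values are scaled by the authors for gene length and library total.

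Counts were rounded, filtered by filterByExpr, TMM-scaled and fitted with edgeR 4.0.16 (R 4.3.3) by its robust quasi-likelihood test, without a block. P-values are two-sided and Benjamini-Hochberg adjusted over all genes tested in the fit concerned, with a threshold of 0.05. That was 13842 genes in the fit reported and with the replicate block, and 12767 by DESeq2. The number differed where the filter or the libraries kept differed, as in the 13960 genes without Aβ42 replicate 2. Limma 3.58.1 and DESeq2 1.42.0 served as alternatives. SE is the size of the log2 fold change over the root of the F statistic, and 95% intervals use its t quantile. Log2 CPM used a prior count of 2. Same-numbered libraries were treated as pairs in an alternative, because their deviations from the group means correlated at 0.181, 0.388 and 0.129 for numbers 1, 2 and 3 across 12186 genes (mean count 50 or more), all above 0.1. Unlike numbers also correlated, at 0.177 for vehicle 3 with Aβ42 1 and 0.154 for vehicle 1 with Aβ42 3, so the values set number 2 apart and do not tell numbers 1 and 3 from each other. The pairing rests on the data, and the labels do not state a shared culture. Chi-square per gene between libraries was 3.16 to 21.1, so none was a duplicate. Members and lists were chosen with earlier results of these data known. All members were named, with the 2 genes of smallest p-value per list, RELN and MYLIP, the 5 genes nearest to APOE and the 3 nearest to a member whose groups did not overlap; other names were chosen after their values were seen. Some genes that this rule covers are not reported here.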

Additional observations from a re-analysis of the deposited data

How the results depend on the processing

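Across 25 alternatives (19 planned, and 6 chosen after seeing the data that left out a replicate number with or without the replicate block), the 8 tested members gave 200 log2 fold changes. Of these 179 kept direction and side of the threshold, 11 newly passed and 10 turned sign. Genes passing among all tested genes, 0 in the fit reported, numbered 360 (189 higher, 171 lower) with no filter on low counts, 804 (384 and 420) by DESeq2, 2543 (1251 and 1292) by limma-voom that weights samples by quality, 1962 (986 and 976) for the replicate block, and 2015 (1037 and 978) for a length correction plus the block. In the same order the members passing numbered 0, 1, 1, 2 and 1, and the pathway genes 1, 3, 11, 13 and 13. Leaving out 1 library at a time gave 0 to 3224 genes, 0 to 3 members and 0 to 15 pathway genes, each maximum without Aβ42 replicate 2, whose quality weight was 0.395. With the block and without number 1, 2 or 3 there were 154, 2035 and 519 genes, 0, 1 and 1 members and 2, 12 and 3 pathway genes. Without a block and without both libraries numbered 2 there were 2316 genes, 1 member and 13 pathway genes; without both numbered 1 or both numbered 3 there were 0 of each by edgeR (2012 and 1129 genes with an unadjusted p-value under 0.05). Members whose groups did not overlap, 1 in the report, were 2 with RLE scaling (LRP1 and LRP8), 0 with upper-quartile scaling, 3 with no filter (LRP1, LRP8 and APOD, the last by library scaling alone, since both groups hold a library with 1 count), 2 on log2(TPM + 1) and 2 on log2(TPM + 0.1) (CLU and LRP1 on both), 0 with the length correction and 1 to 4 with a library left out.

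With the length correction, with or without the block, LRP1 was at 0.02 and VLDLR at 0.03. VLDLR was at 0.02 without vehicle replicate 1 and at 0.04 without number 1, with or without the block. CLU was at 0.01 without vehicle replicate 2 and at 0.01 without number 2, with or without the block. RELN was at -0.04 without vehicle replicate 3, -0.04 without Aβ42 replicate 2, -0.0037 without number 2 with the block and -0.01 without the block, and -0.02 without number 3 with the block and -0.01 without it. Without either library of a number and without the block, the values ran from -0.06 to 0.01 for CLU, -0.05 to 0.04 for VLDLR and -0.01 to 0.25 for RELN. The causes were not tested. The block changed the call of no member other than APOE and SORL1. Log2 TPM scales moved the median of all genes to -0.040 and -0.043. With 3 libraries a group an exact permutation test cannot go below 0.10, and APOD and most other apolipoprotein genes lay at the counting limit.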
